A study of Mus musculus with 4 samples.

Results

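The genes described here are Lmo4, Pdlim4, Myo6, Ckb, Igfbp7, Fbln1, Plac8, Tesc, Tceal3 and the long noncoding RNA AC163354.1. These 10 genes, of 31053 in the count matrices, were picked by symbol because earlier results of the same data showed them lower in Hivep3-/- iNKT2 or cycling cells. Their fall in those cells is therefore given below as a description with no test. What the choice did not use is their normal pattern over the stages of C57BL/6 cells and their levels in the other classes of Hivep3-/- cells, and these were tested. The tests used cells of the same mice and libraries, so they are not independent of the choice.

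Invariant natural killer T (iNKT) cells are thymus-derived T cells with a nearly constant T cell receptor that recognises lipids on CD1d. After selection they pass through an immature stage 0, which carries Cd24a and Egr2, divide, and mature into iNKT2 cells rich in the transcription factor PLZF and able to make IL-4, iNKT17 cells that depend on RORγt, and iNKT1 cells that depend on T-bet. HIVEP3 belongs to a family of large zinc finger proteins named for binding kappaB-type enhancer sequences. CD1d-PBS57 tetramer-binding thymocytes were sorted from 2 C57BL/6 and 2 Hivep3-/- mice on the C57BL/6 background, untreated and 8 to 9 weeks of age, with 1 library per mouse and CD44low and CD44high cells mixed in equal numbers. The Hivep3-/- allele is a germline one, so cells of every type in these mice carry it, and the number of cells of each class also reflects the sort.

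LMO4 is a transcription cofactor made of 2 LIM domains that joins DNA-binding proteins through LDB1, and TCEAL3 is related to the elongation factor TFIIS. PDLIM4 couples LIM-binding proteins to actin fibres, and MYO6 is the myosin that walks toward the minus end of actin. CKB is the brain-type creatine kinase, and TESC (tescalcin) is a calcium-binding partner of the sodium-proton exchanger NHE1. IGFBP7 and FBLN1 (fibulin-1) are secreted, the latter into the extracellular matrix, and PLAC8 is a small cysteine-rich protein. In the GENCODE vM21 annotation of GRCm38, AC163354.1 (ENSMUSG00000113669) is the lincRNA Gm36723 at chr12:25303940-25471979 on the plus strand. The other genes are protein coding: Lmo4 lies at chr3:144188530-144205220 (minus strand), Pdlim4 at chr11:54054928-54069014 (minus), Myo6 at chr9:80165031-80311729 (plus), Ckb at chr12:111669361-111672338 (minus), Igfbp7 at chr5:77349240-77408041 (minus), Fbln1 at chr15:85205949-85286535 (plus), Plac8 at chr5:100553725-100572245 (minus), Tesc at chr5:118027743-118061878 (plus) and Tceal3 at chrX:136590842-136668378 (plus). They sit on 7 chromosomes, so most are not neighbours.

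Among the members, Lmo4 with Ckb and Pdlim4 with Fbln1 had the most similar patterns over classes and libraries, and the 250 bases before the start of these genes (RefSeq, build GRCm38.p6, the record nearest to the GENCODE start) are shown to let a reader compare them. Capitals mark matches to the kappaB-type pattern GGGNNNNNCC on either strand. The Lmo4 stretch is chr3:144205256-144205505, Ckb chr12:111672339-111672588, Pdlim4 chr11:54069018-54069267 (all minus strand) and Fbln1 chr15:85205699-85205948 (plus strand).
Lmo4: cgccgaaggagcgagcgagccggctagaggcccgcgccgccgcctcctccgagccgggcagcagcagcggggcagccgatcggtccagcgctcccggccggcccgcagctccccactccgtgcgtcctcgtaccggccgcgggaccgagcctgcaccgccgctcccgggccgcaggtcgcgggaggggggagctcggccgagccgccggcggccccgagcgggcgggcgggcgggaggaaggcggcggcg
Ckb: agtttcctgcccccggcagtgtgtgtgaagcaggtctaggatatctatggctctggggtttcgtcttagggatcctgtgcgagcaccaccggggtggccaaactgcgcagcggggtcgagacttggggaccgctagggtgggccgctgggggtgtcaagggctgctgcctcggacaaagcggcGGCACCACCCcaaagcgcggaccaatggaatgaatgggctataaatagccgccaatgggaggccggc
Pdlim4: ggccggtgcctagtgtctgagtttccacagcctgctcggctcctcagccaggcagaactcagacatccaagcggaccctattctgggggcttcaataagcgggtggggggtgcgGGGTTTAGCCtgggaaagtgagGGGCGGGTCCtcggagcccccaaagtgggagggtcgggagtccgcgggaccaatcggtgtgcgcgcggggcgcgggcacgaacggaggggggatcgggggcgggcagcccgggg
Fbln1: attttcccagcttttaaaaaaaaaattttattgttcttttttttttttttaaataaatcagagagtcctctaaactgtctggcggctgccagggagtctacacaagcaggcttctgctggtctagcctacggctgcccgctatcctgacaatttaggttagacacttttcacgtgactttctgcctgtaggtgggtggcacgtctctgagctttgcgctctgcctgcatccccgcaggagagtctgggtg
The pattern occurred 2 times before Pdlim4 and 1 time before Ckb, and it did not occur before Lmo4 or Fbln1. Over the 10 genes it was present in 6, against 45.8% of 32851 such stretches of RefSeq genes. GATA was present in 5 of the 10 (53.6% of all), the E-box CANNTG in 4 (66.2%) and the NFAT core GGAAA in 6 (55.6%), with both strands searched and overlaps between motifs kept. The Lmo4 stretch was rich in G and C, at 82.4%, and the Fbln1 stretch held 46.4%, against a median of 52.4% over all. In the stretches shown, Lmo4 and Ckb shared none of the 4 motifs, since the Lmo4 stretch held none of them, and Pdlim4 and Fbln1 shared the NFAT core. These counts depend on the record used. Another Fbln1 record, 59 bases from the GENCODE start, held 4 kappaB-type matches. Lmo4 records at 2824 and 2888 bases from the GENCODE start held 3 each. The AC163354.1 record used lay 51961 bases from the GENCODE start. A match here is a run of letters, not a measured site.

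The 4 libraries held 31381738 to 48291764 unique molecular identifiers (UMIs), and 3651 to 7231 cells per library were kept at a median of 4596 to 6833 UMIs per cell, deeper in Hivep3-/- than in C57BL/6. Between 26 and 58 cell barcodes were shared by each pair of libraries. Hivep3 had 1735 and 929 UMIs in the kept C57BL/6 cells and 3464 and 2122 in the Hivep3-/- cells, so transcripts of the targeted gene were still counted. Which part of the gene was deleted is not stated in the sources read, and 5′ counts need not cover it, so this count does not check the labels. Cells were grouped into 13 clusters, with the 10 genes kept out of the clustering, and clusters were named from markers as stage 0-like, cycling-like, iNKT2-like, iNKT17-like or iNKT1-like, with 3 clusters unnamed. C57BL/6 replicate 1 came from a female (Xist 14609 UMIs, no Y-linked UMI) and the other 3 from males, which touches X-linked Tceal3. Fewer transcripts in a sum over cells can mean fewer positive cells or less RNA in each, which the sums alone do not separate.

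In C57BL/6 cells the genes fell into several stage patterns. Levels are in CPM, the UMIs of a gene divided by the effective UMIs of a library's cells of a class and multiplied by 1000000. Effective UMIs are those of the genes that passed a filter on low counts, multiplied by a TMM scaling factor. The factors put all classes on a common scale. Values are given for replicate 1, then replicate 2. Lmo4 was 46.6 and 67.4 CPM in stage 0-like cells, 717 and 641 in cycling-like cells, 467 and 362 in iNKT2-like cells, 1129 and 861 in iNKT17-like cells, and 68.0 and 67.0 in iNKT1-like cells. Thus the level of this cofactor was low in stage 0-like cells and low again in iNKT1-like cells, and the ranges of neighbours in the order did not overlap apart from iNKT1-like and stage 0-like cells. Ckb had a like shape, with 58.1 and 69.8 CPM in stage 0-like, 215 and 234 in cycling-like, 257 and 242 in iNKT2-like, 689 and 841 in iNKT17-like, and 44.8 and 65.6 in iNKT1-like cells. Its level was highest in iNKT17-like cells in both libraries, and stage 0-like and iNKT1-like cells overlapped.

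Pdlim4 and Fbln1 were found mainly in cycling-like and iNKT2-like cells. Pdlim4 was 36.1 and 43.9 CPM in cycling-like and 10.4 and 9.61 CPM in iNKT2-like cells, and 5 UMIs in all were counted in the other 3 classes of C57BL/6 together. Fbln1 was 43.4 and 36.0 CPM in cycling-like and 13.8 and 15.0 CPM in iNKT2-like cells, and at most 2.33 CPM in any library of another class. No stage 0-like cell of 477 had a Pdlim4 UMI, which allows a share of cells with a UMI of up to 0.629% at median depths of 3393 and 5244 UMIs and sets no limit on cells expressing it. Igfbp7, the other secreted protein, had its peak 1 class later: 19.0 and 22.2 CPM in iNKT2-like cells, 4.57 and 3.70 CPM in cycling-like cells, and 5 UMIs in the other classes. In none of the 3 did the ranges of cycling-like and iNKT2-like cells overlap.

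Tesc was 385 and 383 CPM in cycling-like, 217 and 182 in iNKT2-like, 73.0 and 56.2 in iNKT17-like, 58.9 and 51.5 in iNKT1-like and 13.7 and 10.6 in stage 0-like cells. The calcium-binding protein gene was thus at its highest in cycling-like cells and lower in every other class, with iNKT17-like and iNKT1-like cells overlapping each other. Plac8 was 385 and 397 CPM in iNKT2-like, 367 and 361 in cycling-like and 233 and 189 in stage 0-like cells, against 24.6 and 35.7 in iNKT1-like and 15.5 and 1.94 in iNKT17-like cells. Plac8 was the member already high in stage 0-like cells. Myo6 was 69.2 and 32.7 CPM in cycling-like, 21.2 and 34.4 in iNKT1-like, 20.9 and 18.6 in iNKT2-like, 3.88 and 5.81 in iNKT17-like and 1.64 and 1.18 in stage 0-like cells, with cycling-like and iNKT1-like cells overlapping.

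AC163354.1 was 32.4 and 50.5 CPM in iNKT2-like, 31.0 and 32.9 in iNKT1-like, 14 and 14.5 in iNKT17-like, 10.6 and 11.3 in cycling-like cells, and 4.38 and 0 in stage 0-like cells. Tceal3 varied least, from 9.86 and 9.47 CPM in stage 0-like to 24.4 and 25.5 CPM in iNKT1-like cells, and the ranges of its 4 lower classes overlapped from neighbour to neighbour. Tceal3, AC163354.1 and Myo6 were thus members whose iNKT1-like range was the highest or overlapped that of their highest class.

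**Figure D1:**
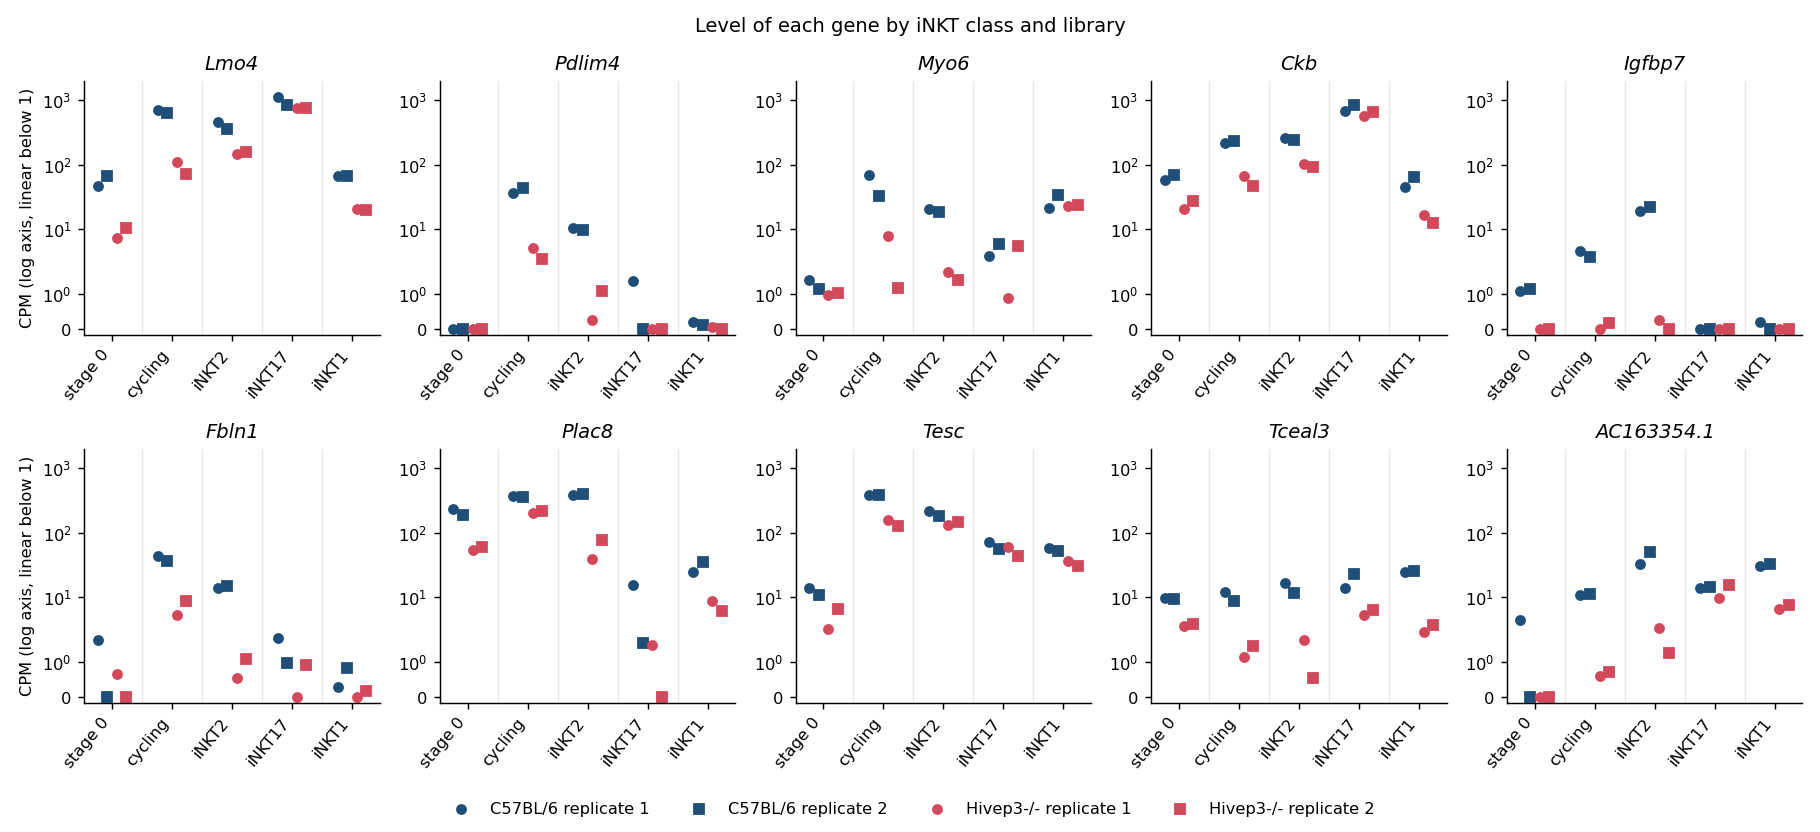
Level of each gene in CPM (vertical axis, logarithmic above 1 and linear below) in 5 classes of cells (horizontal axis), 1 point per library, blue for C57BL/6 and red for Hivep3-/-, circles for replicate 1 and squares for replicate 2. Red points lie below both blue points for all 10 genes in cycling-like and iNKT2-like cells, while in iNKT17-like cells Lmo4 stayed at 754 and 753 CPM and Ckb at 569 and 651 CPM in Hivep3-/-.

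Stage differences in C57BL/6 were tested between classes the choice of genes did not rest on, in a joint edgeR quasi-likelihood fit of all 4 libraries and 5 classes with library as a block and Benjamini-Hochberg adjustment over 10989 genes, of which all 10 members passed the filter on low counts. Pdlim4, Igfbp7 and Fbln1 passed only through classes where they are high, with 0, 3 and 4 UMIs in C57BL/6 stage 0-like cells, 2, 0 and 4 in iNKT17-like cells and 3, 2 and 10 in iNKT1-like cells, so these comparisons say nothing of them. Of the 5 members that passed the filter in stage 0-like cells alone, Plac8, Tesc and Tceal3 were called between stage 0-like and iNKT1-like cells. The threshold was an adjusted p under 0.05, which 51.6% of all genes met. Plac8 was higher in stage 0-like cells by 2.85 on the log2 scale (standard error, SE, 0.212, adjusted p 4.66e-11 by edgeR). Tesc (-2.15, SE 0.234, adjusted p 3.57e-08) and Tceal3 (-1.38, SE 0.304, adjusted p 0.000517) were lower. Lmo4 (-0.35, SE 0.190, adjusted p 0.128 by edgeR) and Ckb (0.22, SE 0.192, adjusted p 0.372 by edgeR) did not pass, so no difference of these 2 was shown, although Lmo4 passed without C57BL/6 replicate 2 (-0.59, adjusted p 0.0494) and without Hivep3-/- replicate 2 (-0.40, adjusted p 0.0427). Myo6 had 4 UMIs and AC163354.1 had 8 UMIs, all from replicate 1, in C57BL/6 stage 0-like cells. Neither passed the filter in stage 0-like cells alone. Both entered this comparison through classes where they are higher, so it says nothing of them.

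Of the 5 members that passed the filter in iNKT17-like cells alone, Lmo4, Ckb and AC163354.1 were called between iNKT17-like and iNKT1-like cells, where 27.6% of all genes were. Lmo4 and Ckb were higher in iNKT17-like cells by 3.88 (SE 0.132, adjusted p 1.02e-16) and 3.80 (SE 0.138, adjusted p 2.28e-16) on the log2 scale in the same edgeR fit. AC163354.1 (-1.16, SE 0.297, adjusted p 0.00450) was lower. Its call was lost with a stricter cell filter (adjusted p 0.0699 by edgeR), with no correction between libraries (adjusted p 0.164 by edgeR) and with DESeq2 (adjusted p 0.0591). Plac8 and Myo6 had 22 and 11 UMIs in C57BL/6 iNKT17-like cells, and 20 of the 22 Plac8 UMIs came from replicate 1. Neither passed the filter in that class alone. Both entered through classes where they are higher, so this comparison says nothing of them. Tesc (0.23, SE 0.161, adjusted p 0.317 by edgeR) and Tceal3 (-0.46, SE 0.269, adjusted p 0.227 by edgeR) did not pass.

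In Hivep3-/- cycling-like cells each of the 10 genes was lower in both libraries than in both C57BL/6 libraries, against 25.4% of the 10368 genes tested, a count that the choice of genes fixed. Lmo4 was 109 and 73.0 CPM in Hivep3-/- where C57BL/6 held 717 and 641, so 13.4% of the mean was left. Pdlim4 was 5.07 and 3.47 CPM (10.7% left), Myo6 7.75 and 1.21 CPM (8.80% left) and Fbln1 5.37 and 8.67 CPM (17.7% left). These 4 genes, a cofactor, a pair of actin-linked proteins and a matrix protein, thus kept between 8.80% and 17.7% of their level. Ckb was 67.7 and 46.1 CPM (25.4% left) and Tesc 156 and 126 CPM (36.6% left). Plac8 kept the most, 204 and 219.8 CPM or 58.2%. Tceal3 was 1.19 and 1.73 CPM (14.3% left), AC163354.1 rested on 2 and 4 UMIs (5.89% left) and Igfbp7 on 0 and 1 UMI against 74 and 25.

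Marker sums of the cycling-like cells also differed between genotypes. Stage 0 markers summed to 1546 to 1796 CPM in C57BL/6 and 2670 to 2909 CPM in Hivep3-/-, with 10 of 15 higher in both Hivep3-/- libraries. iNKT1 markers summed to 1509 to 1546 CPM against 2224 to 2807 CPM, with 7 of 25 higher and 7 lower, and 8 of 9 iNKT2 markers were lower, at 1524 to 1581 CPM against 779.7 to 898 CPM. Cycling markers summed to 4730 to 5721 CPM against 4061 to 8487 CPM, and no marker of these lists was at 0 in all libraries. Thymic epithelial markers (Epcam, Krt5, Krt8 and Krt14) summed to 3.33 to 3.41 CPM against 17.3 to 23.6 CPM, with 1 of 4 higher and Krt5 and Krt14 at 0. The part of these shifts in the fall of the 10 genes was not tested. Within clusters 4 and 11 of the 3 cycling-like clusters, all 10 genes were still lower in both Hivep3-/- libraries, and within cluster 10, 9 were, with AC163354.1 overlapping on 28 and 3 against 1 and 0 UMIs without the scaling between libraries and lower in both with it. The choice of genes bears on these counts too, and the share of all genes was not computed for single clusters.

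In iNKT2-like cells, too, all 10 genes were lower in both Hivep3-/- libraries, against 20.3% of the 9439 genes tested. Igfbp7 was almost absent: 1 and 0 UMIs in Hivep3-/- against 168 and 74 in C57BL/6, a ratio of depth-scaled sums of 145 with a 95% counting interval from 25.8 to 5756. Pdlim4 had 1 and 4 UMIs against 92 and 32 (ratio 14.9, interval 6.21 to 46.6), and Fbln1 had 2 and 4 against 122 and 50 (ratio 17.2, interval 7.74 to 47.5). The intervals cover counting error only, not the spread between mice. AC163354.1 was 3.29 and 1.37 CPM (5.62% left), Tceal3 2.20 and 0.546 CPM (9.72% left) and Myo6 2.20 and 1.64 CPM (9.70% left). Plac8 fell further here than in cycling-like cells, to 38.4 and 78.1 CPM from 385 and 397, or 14.9% of the C57BL/6 mean.

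The 3 other genes kept more of their level in iNKT2-like cells. Lmo4 was 149.6 and 158 CPM (37.2% left), Ckb 103 and 91.8 CPM (39.1% left) and Tesc 132 and 148 CPM (70.3% left). Tesc was thus near its C57BL/6 range of 182 to 217 CPM without reaching it. The iNKT2 markers of these cells summed to 2254 to 2409 CPM in C57BL/6 and 1823 to 1938 CPM in Hivep3-/-, with 5 of 9 lower, and their part was not tested. Thymic epithelial markers summed to 4.07 to 4.81 CPM against 8.19 to 8.24 CPM, with 1 of 4 higher and Krt5 and Krt14 at 0 in all 4 libraries, and their part was not tested.

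**Figure D2:**
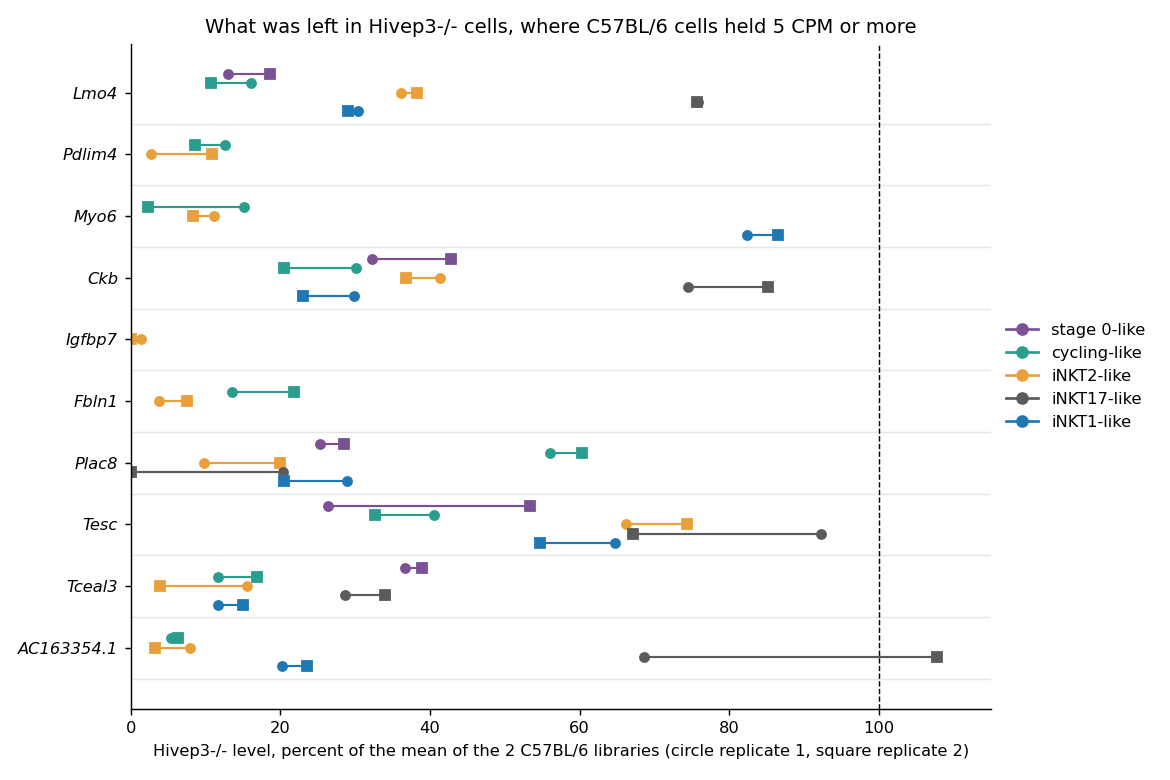
Level in each Hivep3-/- library as a percent of the mean of both C57BL/6 libraries (horizontal axis) for each gene and class in which C57BL/6 cells held 5 CPM or more, circles for replicate 1 and squares for replicate 2, joined by a line in the colour of the class, with a dashed line at 100%. Igfbp7 in iNKT2-like cells sits at 1.33% and 0%, while the iNKT17-like points of Lmo4 and Ckb lie between 74.4% and 85.2%.

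The other classes were tested, in cells of the same libraries that chose the genes. A difference between mice or libraries shared by all classes would enter the choice and these tests alike, so the tests are not independent of it. Whether RNA from other cells of a library reached these counts was not tested. In stage 0-like cells 5 of the 10 genes passed the filter on low counts, and 3 of these were called lower in the knockout in a fit of that class alone with edgeR, against 0.360% of 8878 genes. Lmo4 was 7.40 and 10.6 CPM where C57BL/6 held 46.6 and 67.4, a difference of -2.62 on the log2 scale (SE 0.301, adjusted p 0.00255). Plac8 was 53.4 and 60.2 CPM against 233 and 189 (-1.90, SE 0.172, adjusted p 0.000800), and Ckb was 20.6 and 27.4 CPM against 58.1 and 69.8 (-1.39, SE 0.229, adjusted p 0.0332). The groups did not overlap for any of the 3, as for 19.5% of all genes with Hivep3-/- lower, so lower levels of the cofactor, the kinase and Plac8 were present in the earliest class measured. Tceal3 (-1.39, SE 0.437, adjusted p 0.304 by edgeR) and Tesc (-1.36, SE 0.450, adjusted p 0.339 by edgeR) did not pass. Without Hivep3-/- replicate 2 none of the 3 was called (Plac8 -2.004, adjusted p 0.05004, Lmo4 -2.91, adjusted p 0.0538, and Ckb -1.62, adjusted p 0.118 by edgeR), while calls over all genes went from 42 to 3. Without Hivep3-/- replicate 1 Plac8 was called, with 14 of all genes.

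Of the members left out by the filter in stage 0-like cells, Pdlim4 was at 0 in all 4 libraries and Igfbp7 had 3 UMIs in all. Fbln1 had 4 and 0 UMIs in C57BL/6 and 2 and 0 in Hivep3-/-, Myo6 had 3 and 1 against 3 and 3, and AC163354.1 had 8 and 0 against 0 and 0. No difference was detectable for these 5 genes at this depth. iNKT2 markers summed to 975 to 988 CPM in C57BL/6 stage 0-like cells and 593 to 668 CPM in Hivep3-/-, with 8 of 9 lower, while stage 0 markers summed to 6902 to 7383 CPM against 6946 to 8187 CPM. Thymic epithelial markers summed to 37.2 to 37.9 CPM against 59.9 to 61.1 CPM, all from Epcam, 1 of 4 genes, with Krt5, Krt8 and Krt14 at 0. Their part in the 3 calls was not tested.

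iNKT17-like cells kept 75.7% of their Lmo4 and 79.8% of their Ckb. No member of the 5 tested was called by edgeR, against 0.0264% of 7569 genes lower. At an unadjusted p under 0.05, edgeR counted 2 of the 5, against 5.48% of all genes, and DESeq2 counted 1, with no call by DESeq2 either. Lmo4 was 754 and 753 CPM in Hivep3-/- against 1129 and 861 (-0.41, SE 0.168, adjusted p 0.898 by edgeR), Ckb was 569 and 651 CPM against 689 and 841 (-0.33, SE 0.164, adjusted p 0.925) and Tesc was 59.6 and 43.4 CPM against 73.0 and 56.2 (-0.34, SE 0.249, adjusted p 0.952). Lmo4 and Ckb were lower in both Hivep3-/- libraries, as were 17.2% of all genes, and Tesc overlapped. AC163354.1, which kept 5.62% of its iNKT2-like level, was 9.79 and 15.4 CPM against 14 and 14.5 here (-0.19, SE 0.394, adjusted p 0.985 by edgeR). Tceal3 was 5.34 and 6.32 CPM against 14 and 23.3 (-1.64, SE 0.459, adjusted p 0.488 by edgeR), the lowest share left among the 5, at 31.3%. A library held 126 to 222 of these cells, so a miss of the threshold does not show that levels were equal.

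In iNKT1-like cells 7 of the 10 genes were tested and 5 were called lower, against 0.235% of 10645 genes. Tceal3 was 2.91 and 3.76 CPM against 24.4 and 25.5 (-2.92, SE 0.209, adjusted p 0.00330 by edgeR), and AC163354.1 was 6.47 and 7.51 CPM against 31.0 and 32.9 (-2.20, SE 0.170, adjusted p 0.00404). Without C57BL/6 replicate 1, the female, the Tceal3 difference was -2.95 (adjusted p 0.00979). Lmo4 was 20.5 and 19.6 CPM against 68.0 and 67.0 (-1.76, SE 0.138, adjusted p 0.00404), Ckb 16.5 and 12.7 CPM against 44.8 and 65.6 (-1.92, SE 0.229, adjusted p 0.0201) and Plac8 8.72 and 6.17 CPM against 24.6 and 35.7 (-2.01, SE 0.252, adjusted p 0.0226 by edgeR). In each of these 5 genes both Hivep3-/- libraries lay below both C57BL/6 libraries, as they did for 18.6% of all genes. The clusters that make up the class differed in size: cluster 0 held 2041 of 3232 and 1275 of 2100 iNKT1-like cells in C57BL/6 and 994 of 2685 and 774 of 2132 in Hivep3-/-, cluster 2 held 477 and 307 against 817 and 723, and cluster 3 held 442 and 310 against 582 and 460. Clusters 2 and 3 hold less Lmo4 and Ckb than cluster 0 in both genotypes, and within each of the 4 clusters both genes were lower in both Hivep3-/- libraries. The calls of Ckb and Plac8 were lost without Hivep3-/- replicate 2 (adjusted p 0.0710 and 0.0719) and with no correction between libraries (adjusted p 0.133 and 0.188 by edgeR).

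Tesc and Myo6 stood apart in iNKT1-like cells. Tesc was 35.8 and 30.2 CPM against 58.9 and 51.5, with no overlap (-0.75, SE 0.155, adjusted p 0.109 by edgeR), and it was called with DESeq2 (adjusted p 0.0312). Myo6 was 22.9 and 24.1 CPM in Hivep3-/- against 21.2 and 34.4 in C57BL/6 (-0.25, SE 0.232, adjusted p 0.836 by edgeR). The Hivep3-/- values of Myo6 thus lay inside the C57BL/6 range in iNKT1-like cells, where 84.5% of the mean was left, although 8.80% was left in cycling-like cells. iNKT2 markers summed to 693 to 731 CPM in C57BL/6 iNKT1-like cells and 339 to 372 CPM in Hivep3-/-, with 7 of 9 lower. Thymic epithelial markers summed to 6.43 to 7.72 CPM against 15.5 to 18.4 CPM, with 1 of 4 higher and none at 0, and double-positive thymocyte markers to 15.0 to 16.9 CPM against 31.8 to 32.8 CPM, with 2 of 8 higher, 2 lower and Rag2 and Ptcra at 0. The part of these lists was not tested. Igfbp7, Pdlim4 and Fbln1 had 2, 4 and 12 UMIs in all iNKT1-like cells together.

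Whether the genotype difference itself depended on the class was tested as an interaction in the joint edgeR fit. For stage 0-like against iNKT1-like cells no member was called, where 3.40% of 10989 genes were in either direction. Pdlim4, Igfbp7 and Fbln1 had at most 12 UMIs over all libraries of either class, so they carry almost no value for it. At an unadjusted p under 0.05, 3 were counted by edgeR (14.7% of all genes) and 3 by DESeq2, with none called by DESeq2. The differences between the differences were -0.81 for Lmo4 (SE 0.329, adjusted p 0.225 by edgeR), 0.48 for Ckb (SE 0.283, adjusted p 0.465) and 0.02 for Plac8 (SE 0.290, unadjusted p 0.951). For iNKT17-like against iNKT1-like cells, 2 members were called, against 0.592% of all genes: Lmo4 (1.36, SE 0.186, adjusted p 0.000241) and Ckb (1.57, SE 0.200, adjusted p 7.99e-05). The fall of both was thus smaller in iNKT17-like cells than in iNKT1-like cells, although the Lmo4 call was lost with no correction between libraries (adjusted p 0.121). AC163354.1 had a larger difference of 2.01 with a larger error (SE 0.502, adjusted p 0.0711 by edgeR). The classes of a library come from the same mouse, and n was 2 mice per genotype.

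The clusters behind the classes show where levels changed within them. Values for clusters are CPM without the common scaling. Among the cycling-like clusters, cluster 4, led by Il13 and the replication gene Mcm3, held the most Lmo4 in Hivep3-/- cells, 162 and 114 CPM against 739 and 664 in C57BL/6. In cluster 11, led by Hist1h2ap, 39.6 and 28.0 were left of 547 and 530.5, and in cluster 10, led by Ccnb2, 52.6 and 75.7 of 606 and 519. Among the iNKT1-like clusters, cluster 2 (led by Ccl5 and Gzma) and cluster 3 (Ifitm2 and Klra5) held the least Ckb, 9.48 to 16.6 CPM in C57BL/6 and 2.92 to 5.39 in Hivep3-/-. Plac8 overlapped between genotypes in cluster 2, at 15.4 and 2.19 CPM in C57BL/6 and 13.4 and 6.01 in Hivep3-/-. Taken alone, clusters 0, 2, 3 and 7 gave 4, 1, 2 and 5 members called by edgeR, of 7, 7, 6 and 7 tested, while 33, 30, 41 and 64 of all genes were called. How many genes were tested in each cluster is not given here, so these counts have no share of all genes beside them.

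Of the unnamed clusters, cluster 8, led by Tnni1, Htra3 and Klrb1a, had 206 and 36 C57BL/6 and 275 and 366 Hivep3-/- cells. Lmo4 was 354 and 389 CPM there in C57BL/6 and 21.0 and 11.1 in Hivep3-/-, AC163354.1 was 51.0 and 81.2 against 0 and 0.570, and Igfbp7 was 10.5 and 21.5 against 0 and 0.570. Plac8 was 483 and 468 CPM against 238 and 336. In this cluster 9 of the 10 genes were thus lower in both Hivep3-/- libraries, and Myo6 overlapped. The share of all genes lower in both was not computed for this cluster, so nothing is read from this count. Cluster 5, led by Gzmb and Srm, had iNKT1-like levels, with Lmo4 at 62.4 and 46.7 against 21.2 and 15.3 CPM, and cluster 12, with 142 cells, was too small to compare.

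**Figure D3:**
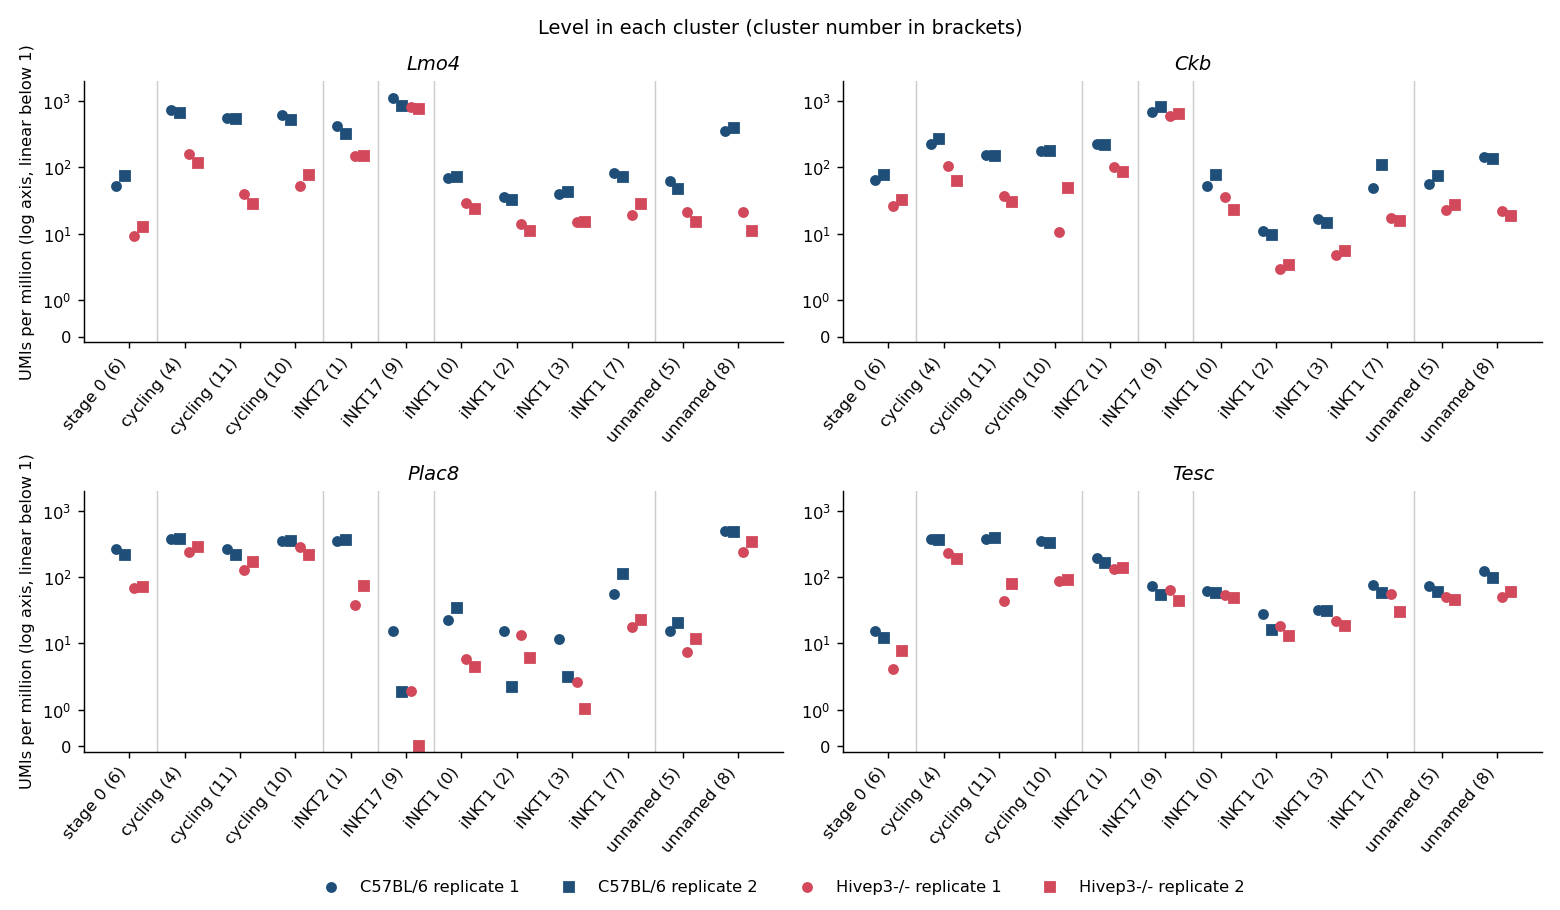
CPM without the common scaling (vertical axis, logarithmic above 1 and linear below) of Lmo4, Ckb, Plac8 and Tesc in 12 clusters grouped by class (horizontal axis, cluster number in brackets), 1 point per library as in the plot of levels by class. In unnamed cluster 8 Lmo4 stands at 354 and 389 in C57BL/6 and 21.0 and 11.1 in Hivep3-/-, a wider gap than in cluster 1, the iNKT2-like cells, with 415 and 322 against 147 and 146.

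The share of cells with a transcript was compared after each cell was thinned to 2000 UMIs, which left out 502, 91, 82 and 75 shallower cells of the 4 libraries, and intervals are exact binomial 95% ones for counting error. In iNKT2-like cells Lmo4 had a UMI in 43.7% (interval 41.0 to 46.4) and 37.2% (32.5 to 42.2) of C57BL/6 cells and in 20.8% (16.9 to 25.1) and 17.2% (13.8 to 21.1) of Hivep3-/- cells. Without thinning the shares were 72.8% and 69.5% against 42.3% and 39.6%, at median depths of 7307 to 9006 UMIs. In cycling-like cells the thinned shares were 57.8% and 56.6% against 13.0% and 10.0%, and the lowest class, stage 0-like cells, held 5.66% and 10.2% against 2.21% and 3.53% at median depths of 3393 to 5622 UMIs. Shares in Hivep3-/- iNKT2-like and cycling-like cells were thus above those of Hivep3-/- stage 0-like cells, though below those of C57BL/6 cells of the same class. The Hivep3-/- cycling-like share of replicate 2, 10.0%, was not above the 10.2% of C57BL/6 stage 0-like replicate 2. In iNKT17-like cells 77.8% and 74.4% against 75.2% and 66.4% of cells had a Lmo4 UMI, with overlapping groups.

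Plac8 had a UMI in 32.1% and 34.0% of C57BL/6 iNKT2-like cells and in 6.44% and 8.95% of Hivep3-/- cells after thinning, against 2.31% and 0% and then 0% and 0% in iNKT17-like cells, its lowest class. In cycling-like cells the Plac8 shares were nearer, 40.6% and 39.3% against 30% and 31.8%. Tesc shares in iNKT2-like cells were 31.1% and 25.0% against 21.3% and 20.4%. Myo6 was carried by few cells at a high level: 10.6% and 8.10% of C57BL/6 cycling-like cells had a UMI without thinning, at 69.2 and 32.7 CPM.

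**Figure D4:**
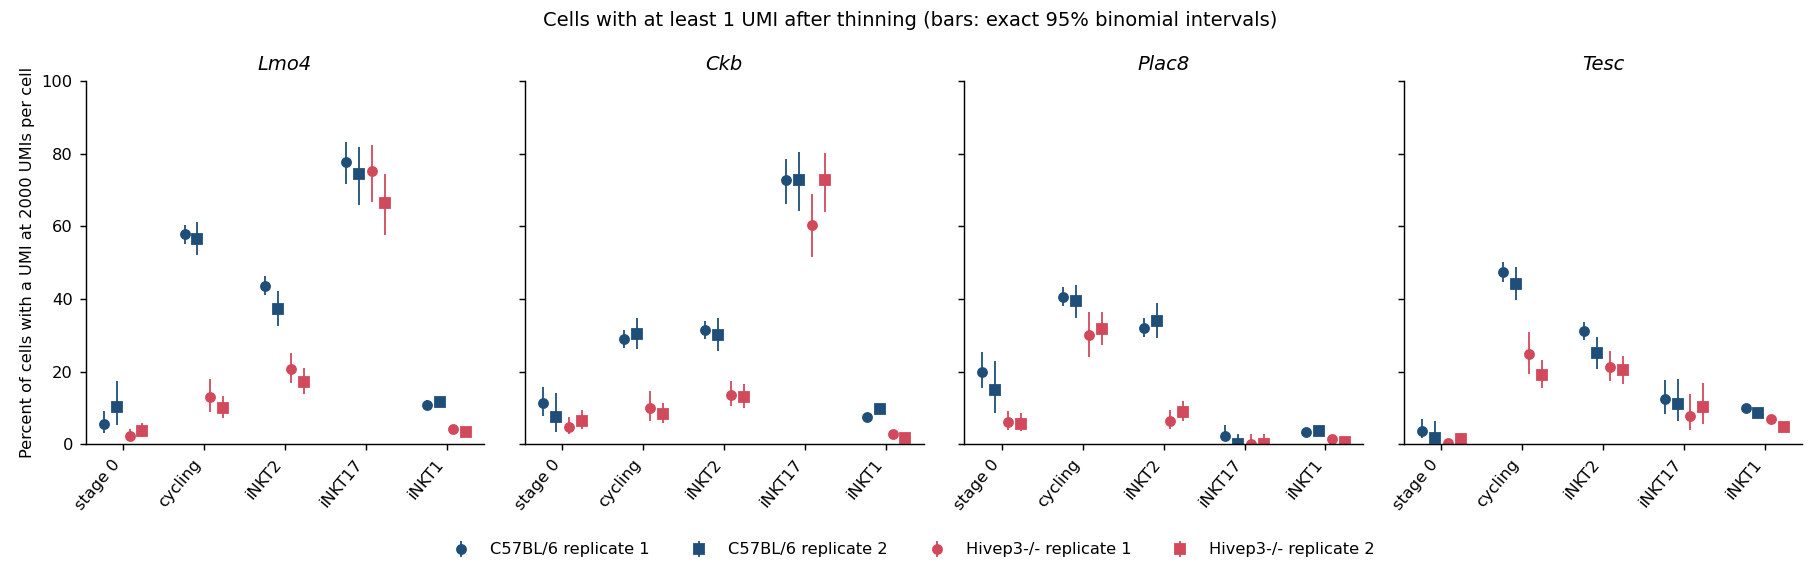
Percent of cells with at least 1 UMI of Lmo4, Ckb, Plac8 and Tesc after thinning to 2000 UMIs per cell (vertical axis) in 5 classes (horizontal axis), 1 point per library with its exact 95% binomial interval, blue for C57BL/6 and red for Hivep3-/-. Lmo4 in cycling-like cells drops from 57.8% and 56.6% to 13.0% and 10.0%, and the intervals of the 2 genotypes in iNKT17-like cells overlap for Lmo4, Ckb and Tesc.

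The Lmo4 left in Hivep3-/- iNKT2-like cells was not even over those cells. They were split, in a comparison chosen after seeing the data, by how many of the 13 iNKT17 markers had a UMI. Hivep3-/- cells with none (75 and 113 cells) held 74.8 and 66.8 Lmo4 CPM on the unscaled totals, and those with 2 or more (69 and 81 cells) held 269 and 262. In C57BL/6 the same split gave 355 and 241 CPM with none and 522 and 351 with 2 or more. Ckb followed, with 67.7 and 33.9 against 185 and 136 CPM in Hivep3-/- and 203 and 165 against 271 and 264 in C57BL/6. Lmo4 and Ckb were thus higher in cells with iNKT17 markers in all 4 libraries. Cells with more markers were also deeper, at medians of 9463 and 8524 UMIs against 7155 and 7570 in Hivep3-/-, and no test was made over cells. The iNKT17 markers summed to 238 to 269.5 CPM in C57BL/6 and 248 to 338 CPM in Hivep3-/- iNKT2-like cells, with Ccr6 at 0.

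The pattern of each gene was set against those of 10989 genes by Pearson's r of log2(CPM + 1) over the 20 sums of 4 libraries and 5 classes, as a description: the points share libraries and classes, and all members share the fall that chose them. Lmo4 was most like Ckb (r 0.951), Ndufv3 (0.951) and Icos (0.926), and Ckb was most like Lmo4, Arf5 (0.949) and Gpr25 (0.923). Pdlim4 was most like Fbln1 (0.963), Cdkn2a (0.960) and Phgdh (0.917), and Fbln1 most like Pdlim4, Cdkn2a (0.939) and Abracl (0.901). Over the 10 C57BL/6 sums alone r was 0.937 for Lmo4 with Ckb and 0.972 for Pdlim4 with Fbln1, so the pairs were alike in stage pattern as well. Plac8 was most like Prr3, Tet1 and Tes (0.888 to 0.901), Tesc most like Psme2, Zfp706 and Rgs19 (0.914 to 0.941), and Myo6 most like Ier3, Myl6 and Mvb12b (0.873 to 0.882). AC163354.1 was most like Ndufa6, Tex2 and Npc2 (0.875 to 0.884) and Igfbp7 most like Gm34099, Gm973 and Rpl41 (0.833 to 0.866). Tceal3 had the weakest likeness, with Mtus2, Sh2d2a and Arpc5l at 0.719 to 0.802.

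**Figure D5:**
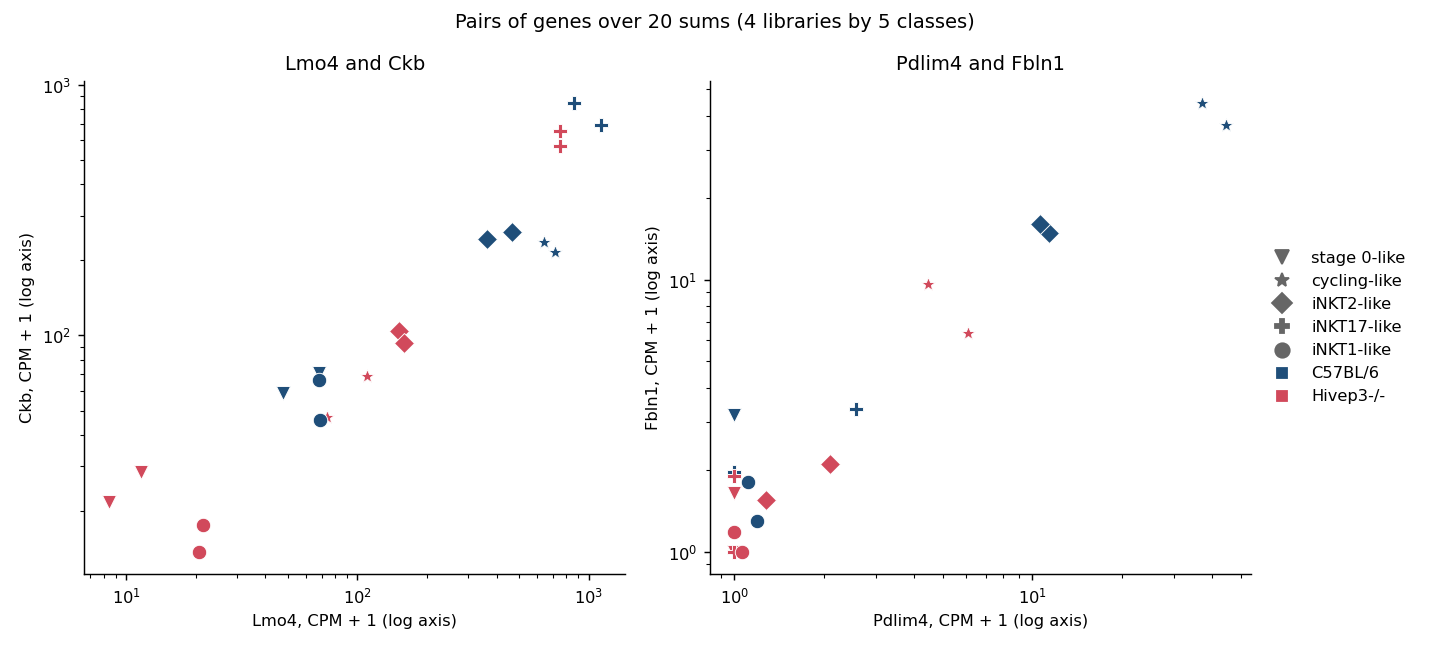
Level of Ckb against Lmo4 (left) and of Fbln1 against Pdlim4 (right), both axes CPM + 1 on a logarithmic scale, 1 point for each of 20 sums of a library's cells of a class, shape for class and colour for genotype. Pearson's r is 0.951 on the left, where iNKT17-like cells of both genotypes lie at the top, and 0.963 on the right, where C57BL/6 cycling-like cells lie at the top.

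Relatives and partners of the members were taken as 9 lists of 134 genes. In cycling-like cells 3 of 74 tested list genes were lower and 4 higher in Hivep3-/-, against 1.31% and 1.32% of all genes. In iNKT2-like cells 2 of 65 were lower, Il4 and Il13, against 0.233%. The lists were chosen with earlier results of these data known, so the shares of all genes are no independent measure for them. In stage 0-like cells 1 of 70 was lower (against 0.360%). In iNKT1-like cells 1 of 71 was lower (against 0.235%) and 1 higher (against 0.535%). In iNKT17-like cells 0 of 55 were called by edgeR (5 at an unadjusted p under 0.05, and 0 called by DESeq2). Most relatives were therefore not called, and the ones that were went in both directions.

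Of the 18 LIM-only and LDB partner genes, 10 were tested in cycling-like cells and Lmo1, another LIM-only gene, was lower, with 0 and 1 UMIs in Hivep3-/- against 44 and 25 in C57BL/6 (adjusted p 0.0383 by edgeR). Of 27 LIM proteins of the cytoskeleton, Pdlim7 was higher in cycling-like cells, at 40.6 and 35.2 CPM against 18.7 and 20.2 (0.99, SE 0.182, adjusted p 0.0484 by edgeR). Pdlim1 was higher in iNKT1-like cells, at 31.8 and 39.3 CPM against 11.9 and 9.80 (1.70, SE 0.189, adjusted p 0.0144 by edgeR). Pdlim7 thus moved opposite to Pdlim4 in the same class, whereas Pdlim1 missed the threshold in cycling-like cells, where edgeR gave 0.05 (SE 0.114, adjusted p 0.874), and Pdlim4 was not tested in iNKT1-like cells. Ckm, the muscle-type creatine kinase, rose in cycling-like cells to 8.35 and 17 CPM from 1.17 and 1.78 (3.23, SE 0.435, adjusted p 0.0189 by edgeR), opposite to Ckb. The myosin gene Myo1f rose there by 1.86 (SE 0.343, adjusted p 0.0484) and Ppp3cc, a calcineurin catalytic subunit, by 1.43 (SE 0.252, adjusted p 0.0418 by edgeR). Igfbp4 fell in stage 0-like cells, to 144 and 141 CPM from 386 and 408 (-1.47, SE 0.147, adjusted p 0.00108 by edgeR).

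The list around Pdlim4 held 13 genes of the type 2 cytokine locus on chromosome 11. Il13 lies 420 kb and Il4 436 kb from Pdlim4. Il13, a type 2 cytokine gene that also leads cycling-like cluster 4, was 6.56 and 8.32 CPM in Hivep3-/- cycling-like cells against 178 and 92.6 (-4.14, SE 0.369, adjusted p 0.00504 by edgeR) and 5.77 and 7.38 CPM in iNKT2-like cells against 65.1 and 43.9 (-3.06, SE 0.270, adjusted p 0.00840). Il4 was lower in cycling-like (-2.15, SE 0.236, adjusted p 0.0101), iNKT2-like (-1.32, SE 0.129, adjusted p 0.00840) and iNKT1-like cells (-1.60, SE 0.148, adjusted p 0.00616 by edgeR). Between 4 and 7 of the 13 genes were tested in a class, and no other gene of the list that was tested was called. The neighbours P4ha2, at 31.1 kb from Pdlim4, and Slc22a4, at 26.8 kb, were not tested in any class, since P4ha2 had at most 5 UMIs in a library and Slc22a4 none. No gene of the fibulin and hemicentin list or of the TCEAL, BEX and TFIIS list was called in any class, with 1 and 3 to 5 of them tested at most.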

How the data were processed

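The authors prepared 10x Genomics 5′ libraries and deposited UMI count matrices made with Cell Ranger 3.1.0 on mm10, and the submitters' processing notes also name Seurat 3.1.4. The deposited values are whole-number counts of UMIs per gene and cell. The members and gene lists were chosen with earlier results of these data known. Cells with 500 to under 4100 genes, at least 1000 UMIs and under 6% mitochondrial UMIs were kept. They were clustered with Seurat 5.3.0 on 2000 variable genes (42 genes and 261 T cell receptor segments left out), 30 components, a mutual nearest neighbour correction between libraries and resolution 0.8, and named from at least 3 markers among the top 20 genes. Scrublet called 0 to 5 cells per library and had not worked, so doublets were kept except in an alternative. UMIs were summed per library and class and tested with edgeR 4.0.16 (filterByExpr, TMM, quasi-likelihood, Benjamini-Hochberg), and DESeq2 1.42.0 was an alternative. Statistics were checked on simulated counts. Named genes were the 10 members, called genes of the lists (at most 4 per list and class), the 3 most alike genes of each member and leading genes of clusters. Antisense or overlapping transcripts were not separated. The animals within a genotype are the replicates, with 2 each, so p-values rest on few degrees of freedom. A marker list is not reported here.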

Additional observations from a re-analysis of the deposited data

Results flagged for a closer look

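The genotype difference of 2 genes depended on the class of cells. For Lmo4 the fall in Hivep3-/- was smaller in iNKT17-like than in iNKT1-like cells, by a log2 value of 1.36 (SE 0.186, adjusted p 0.000241 in edgeR's interaction test). All 4 Hivep3-/- values lay below the C57BL/6 values of their class. For Ckb the fall was likewise smaller in iNKT17-like cells, by 1.57 (SE 0.200, adjusted p 7.99e-05 by edgeR), with all 4 values lower. DESeq2 called the same number of members, 2, and with no correction between libraries the Lmo4 call was lost (adjusted p 0.121).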

How the results depend on the processing

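Without Hivep3-/- replicate 1 and without Hivep3-/- replicate 2 the 3 genes called in stage 0-like cells became 1 and 0, and leaving out each library in turn gave 0 to 3. In iNKT1-like cells leaving out a library gave 3 to 5 of the 5 calls, no correction between libraries gave 3, and clusters 2 and 3 alone gave 1 and 2. A stricter cell filter left 3 of 5 members for iNKT17-like over iNKT1-like cells, where the 5 include Plac8 and Myo6, set aside above. The interaction for stage 0-like cells gave 2 with no low-count filter, and that for iNKT17-like cells gave 1 with no correction between libraries, where Lmo4 was lost (adjusted p 0.121). The 12 calls among relatives became 34 with no low-count filter and 22 with a replicate block, and 8 to 14 when a library was left out, all chosen after seeing the data. The signs of 3 values turned: AC163354.1 in iNKT17-like cells without Hivep3-/- replicate 1 (0.11, with -0.55 to 0.11 over the libraries left out), Myo6 in iNKT1-like cells without C57BL/6 replicate 2 (0.14, with -0.55 to 0.14), and Tceal3 in iNKT17-like over iNKT1-like cells with no correction between libraries (0.25). The causes were not tested. Of 125 recomputed counts of members or relatives 114 stayed within a fixed fold of the main count, which allows small changes. They include counts in cycling-like and iNKT2-like cells that the choice of genes fixed. Of 446 single-gene values 414 kept their sign and their side of the threshold. The same replicate numbers are not stated to pair mice. Deviations of the replicate 1 libraries from their genotype means correlated at 0.0906 to 0.161 over the classes. With 2 libraries per genotype the replicate 2 libraries give the same values, so they add nothing. The replicate block gave 3, 0 and 6 members called in stage 0-like, iNKT17-like and iNKT1-like cells. Of all genes, 152, 94 and 159 were then called in place of 42, 5 and 82. With no low-count filter all-gene counts were 242, 57 and 542, and DESeq2 called 190 genes in iNKT1-like cells. Members with few UMIs in stage 0-like and iNKT17-like cells are limited by depth.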
